A study of Mus musculus with 574 samples.

Results

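The cells described here are monocyte-leaning progenitors: single granulocyte-monocyte progenitors (GMPs) of mouse bone marrow whose RNA leaned more to monocyte genes than to the genes of 3 other fates. Each cell was given 4 scores, each the mean of log2(CPM + 1) over 4 genes, where CPM is a gene's reads scaled to the same total of reads on named genes in every cell, and each score was standardised over all kept cells (z). A cell belonged to the monocyte-leaning class when the score of Irf8, Csf1r, Ly86 and F13a1 was its highest. The other scores were granulocytic (Elane, Fcnb, Cebpe, Gstm1), stem-like (Adgrg1, Angpt1, Ifitm1, Hoxa9) and erythroid, mast and basophil (Gata1, Gata2, Car2, Ms4a2). The rule took 160 of 500 kept cells, and 127, 139 and 74 cells went to the other classes in that order. The members were thus chosen by the measured values of these 16 genes, which are given as a description and were not tested.

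All cells came from C57Bl/6 wild-type mice 6 to 12 weeks old, and all were sorted as GMPs, which carry c-Kit, CD34 and Fc gamma receptor and lack Sca-1 and lineage markers. The mice had received a single dose of 150 mg/kg of 5-fluorouracil (5-FU), a drug that kills dividing cells, and marrow was taken on day 8, 10, 12 or 14. The labels put 5-FU on the day 0 cells as well, the protocol names a PBS control, and neither states which of them the day 0 mice were given. There was 1 set of cells per day and there were 2 sets on day 8, so 6 sets in all. Whether a set pooled several mice, and whether the day 8 sets came from separate mice, is not given in the sources used here. The p-values below therefore rest only on the spread between those 2 sets, which may be technical and which edgeR shares across genes.

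GMPs are marrow progenitors that give rise to neutrophils and monocytes, and single GMPs differ in which of these fates their RNA already leans to. Irf8 is a transcription factor that directs progenitors to the monocyte and dendritic fates and restrains the neutrophil fate, while Gfi1 and the C/EBP factors drive granulocyte genes. Spi1 encodes PU.1, an ETS-family factor needed by both branches, and Csf1r encodes the receptor of macrophage colony-stimulating factor, which monocytes need to survive and mature.

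Promoters of 3 genes on which the description below turns are shown because PU.1, the product of Spi1, binds sequences with a GGAA core. They run from 250 bases before to 50 after the start of the gene, 5′ to 3′ on the gene's strand, as RefSeq gives them for GRCm38.p6. Capitals mark GAGGAA, or TTCCTC where it lies on the other strand. F13a1, one of the 4 genes that chose the cells, encodes the A chain of coagulation factor XIII and starts on chromosome 13 (chr13:37050195-37050494, minus strand).
F13a1: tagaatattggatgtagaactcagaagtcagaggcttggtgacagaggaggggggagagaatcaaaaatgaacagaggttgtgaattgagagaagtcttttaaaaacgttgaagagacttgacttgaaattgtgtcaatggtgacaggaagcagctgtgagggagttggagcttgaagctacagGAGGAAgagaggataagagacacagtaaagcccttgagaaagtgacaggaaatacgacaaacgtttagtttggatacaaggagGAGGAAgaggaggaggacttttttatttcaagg
Ctss encodes cathepsin S, a lysosomal protease of antigen-presenting cells (chr3:95526536-95526835, plus strand).
Ctss: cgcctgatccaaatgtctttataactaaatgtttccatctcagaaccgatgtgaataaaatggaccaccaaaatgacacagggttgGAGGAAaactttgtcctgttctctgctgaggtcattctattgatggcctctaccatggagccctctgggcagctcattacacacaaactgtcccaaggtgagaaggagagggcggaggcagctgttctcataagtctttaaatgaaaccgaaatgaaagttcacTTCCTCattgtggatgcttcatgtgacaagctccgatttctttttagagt
Ly6c2 encodes the surface antigen Ly6C of inflammatory monocytes (chr15:75111922-75112221, minus strand).
Ly6c2: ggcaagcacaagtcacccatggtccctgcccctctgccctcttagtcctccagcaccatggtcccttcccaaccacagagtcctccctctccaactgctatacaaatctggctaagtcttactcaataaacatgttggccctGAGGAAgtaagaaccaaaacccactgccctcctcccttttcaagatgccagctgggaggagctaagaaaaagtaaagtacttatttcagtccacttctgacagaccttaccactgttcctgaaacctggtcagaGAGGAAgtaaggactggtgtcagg
The F13a1 and Ly6c2 windows shown are those of the first start that RefSeq lists for each gene, and each held GAGGAA 2 times. The window of a second F13a1 start (chr13:37049164-37049463, minus strand) held it 1 time and that of a second Ly6c2 start (chr15:75111888-75112187, minus strand), which overlaps the first, 2 times. The Ctss window held it 1 time on each strand. The window of Ly86 (chr13:37345095-37345394, plus strand) did not hold these letters. That of Mpo (chr11:87793534-87793833, plus strand), a granule gene lower in this class than in the granulocyte-leaning class, held GAGGAA 2 times. In RefSeq, 28.3% of 32851 promoters of 300 bases held GAGGAA on either strand, as did 31.3% of 27025 genes. Of 24 monocyte and marker genes looked up, 19 were counted and 9 of these held it. Genes on the chromosome of Csf1r were left out of this count. A match is a description of these letters only.

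Depth was moderate and differed between sets. A monocyte-leaning cell had a median of 163695 reads on named genes (108258 on day 14 to 323441 in the first day 8 set) and 6998 genes with a read. Summed over the class, a set held between 2345890 and 9470638 reads, and 1 deep cell gave 23.2% and 27.7% of the reads of the day 8 sums and 27.1% of the day 10 sum, against 4.90% to 10.4% elsewhere. Reads on genes per spike-in read were 42.5 on day 0, 80.8 and 87.9 in the day 8 sets, and 59, 49.6 and 57.5 on days 10, 12 and 14. A single gene, Slc34a2, took a median of 15.2% of a member's reads on day 0, 9.89% and 12.2% on day 8 and 22.2% on day 14. Sex differed between days: Xist, the RNA that silences one X chromosome of females, stood at 160.9 CPM at day 0 and 150.0 CPM at day 12 and at 0 to 0.543 CPM in the other sets, where the Y-linked Eif2s3y stood at 63.6 to 121.7 CPM. In comparisons of days 8, 10 and 14 with day 0, day and sex cannot be told apart; day 12 against day 0 and day 10 against day 8 compare sets of like sex.

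Monocyte-leaning cells were 48 of 92 kept cells on day 0, a share of 52.2% (exact Clopper-Pearson 95% interval 41.5% to 62.7%). On day 8 they were 15 of 90 cells, or 16.7% (9.64% to 26%), in the first set and 8 of 93 cells, or 8.60% (3.79% to 16.3%), in the second. On day 10 they were 23 of 93 cells, or 24.7% (16.4% to 34.8%). The class was thus smallest on day 8. It made up 46 of 85 cells on day 12, 54.1% (43% to 65%), and 20 of 47 on day 14, 42.6% (28.3% to 57.8%). The intervals of both day 8 sets and of day 10 lay below those of days 0 and 12. These intervals cover counting error only, and the shares rest on the rule and were not tested. Cells of a set are not replicates of a day, so intervals that do not overlap are no test between days. The stem-like score holds Ifitm1, whose level differed between days, as given below. Its part in the shares was not tested.

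**Figure D1:**
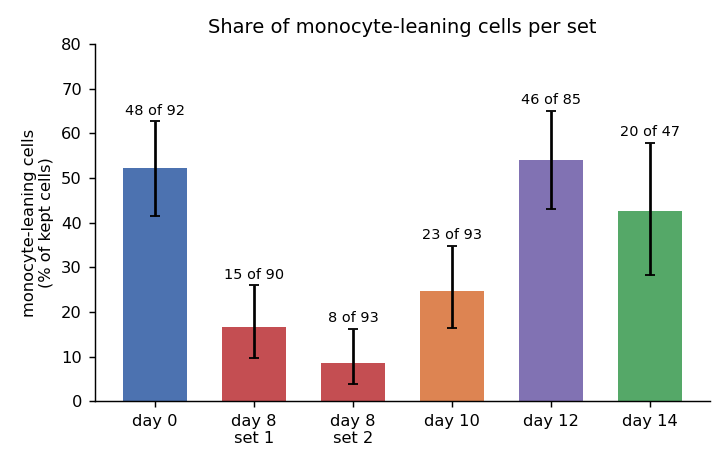
Share of monocyte-leaning cells among the kept cells of each set in percent (vertical axis), with exact 95% Clopper-Pearson intervals as error bars and the counts above the bars. The day 8 sets stand at 16.7% and 8.60%, day 10 at 24.7%, and days 0, 12 and 14 between 42.6% and 54.1%.

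The fate that came next in a member was most often granulocytic. The next-highest score was granulocytic in 103 of the 160 cells, stem-like in 34 and erythroid, mast and basophil in 23. On day 0 it was granulocytic in 37 of 48 members, and in the second day 8 set it was granulocytic in 3 and stem-like in 4 of 8. The monocyte score led the next by less than 0.25 z in 21 members and by less than 0.5 in 33, and 12 cells outside the class came within 0.25 of entering it. The member nearest the edge had a monocyte z of 0.104 against 0.0692 for its next score, and the nearest non-member one of 0.879 against 0.88. In 3 members the monocyte z was below 0, so they entered because their other scores were lower still. When each cell was thinned to 50000 reads, 151 of the 160 stayed in the class.

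The 4 genes that chose the cells were held at different levels through the days. Irf8 stood at 838.9 CPM in the day 0 sum, at 863.3 and 1081 in the day 8 sums, and at 557.7, 770.0 and 702.8 on days 10, 12 and 14. In the second day 8 set 1 of 8 cells gave 67.3% of the Irf8 reads, and the sum without that cell stood at 480.4 CPM. Csf1r stood at 224.2 CPM at day 0, at 156.8 and 182.4 on day 8, and at 177.3 to 220.9 later. F13a1 ranged from 537.8 to 802.5 CPM over the 6 sums. Ly86, whose product pairs with the Toll-like receptor homologue CD180, showed the widest range of the 4 by ratio. It stood at 263.9 CPM at day 0, at 170.9 and 86.1 on day 8, at 88.4 on day 10, and at 227.3 and 149.9 on days 12 and 14.

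The granulocytic score genes were not absent from these cells. Elane, which encodes neutrophil elastase, stood at 16180 CPM at day 0, at 3015 and 2210 CPM at day 8, and at 8834, 12610 and 13970 CPM at days 10, 12 and 14. In single cells the quartiles of day 0 were 5053 and 23330 CPM, and the highest day 8 member reached 7737 CPM. Fcnb and Cebpe, a ficolin and a granulocyte transcription factor of later stages, had no read in 42 and 40 of 48 members on day 0. Ifitm1, an interferon-induced membrane protein gene among the stem-like score genes, had a median of 0 CPM in the members of days 0 and 12, of 39.1 and 94 CPM in those of day 8, of 260.6 CPM at day 10 and of 68.2 CPM at day 14. It was read in all 23 members of day 10 and in 19 of 48 on day 0.

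Most monocyte genes of the list that the rule did not use also had their highest level in this class. Of 20 other monocyte genes, 19 reached 1 CPM, 18 had their highest median level in this class of the 4, and 19 stood above the granulocyte-leaning class. The share over all genes was not computed for either count. Standing above the granulocyte-leaning class was not particular to monocyte genes: 20 of 20 mitosis and 16 of 18 ribosome biogenesis genes did so. Ctss had a median of 79.8 CPM over the 6 monocyte-leaning sums against 3.16 CPM over the granulocyte-leaning ones. Psap, the precursor of the lysosomal saposins, stood at 422.9 against 86.4 CPM, and Ccr2, the receptor by which monocytes leave the marrow, at 195.1 against 32.6 CPM. Each of these 3 genes was higher in the monocyte-leaning sum in all 6 sets. Ly6c2 (4284 against 2533 CPM), the lysozyme gene Lyz2 (664.5 against 194.8 CPM), Tyrobp, an adaptor of myeloid receptors (683.5 against 289.4 CPM), and Zeb2, a repressor with a part in the monocyte fate (91.2 against 47.5 CPM), were also higher in 6 of 6. Klf4, a monocyte transcription factor gene, was low in both classes (4.51 against 0.278 CPM) and had 0 reads in the second day 8 set. Since a score chose these cells, a class against the rest is described and not tested.

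Most lysosomal genes were also highest in this class, though not they alone. Of 18 lysosomal genes, 13 were highest in the monocyte-leaning class. So were 14 of 20 DNA replication and 6 of 9 MHC class I presentation genes, but 4 of 20 mitosis and 1 of 18 ribosome biogenesis genes. The share over all genes was not computed, so these counts are not read as a trait of a list. The membrane protein gene Lamp1 stood at 643.6 against 358.1 CPM, Hexa, a hexosaminidase subunit, at 487.6 against 277.8, and the cathepsin gene Ctsb at 378.4 against 290.8. Cd63, a granule membrane protein gene singled out after its values were seen, went the other way, with 28.7 against 276.8 CPM. Of 16 cytokine receptor genes 7 were highest in this class. The interleukin 6 receptor pair was singled out after its values were seen: Il6ra stood at 75.4 against 23 CPM and its signalling partner Il6st at 52.4 against 3.62 CPM, both higher in 6 of 6 sets. The interferon gamma receptor gene Ifngr1, at 527.6 against 702.3 CPM, was higher in the granulocyte-leaning sum of each set.

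Fate regulators and granule genes divided. Gfi1 stood at a median of 11.4 CPM in the monocyte-leaning sums against 79.3 CPM, lower in 6 of 6 sets, and Myb, a progenitor factor, at 177.7 against 330.5 CPM. Spi1 (300.9 against 286.5 CPM) and Cebpa (70.6 against 69.9 CPM) were near the same level in both classes. Mpo, the myeloperoxidase gene, stood at 41500 against 48390 CPM. Mpo, the proteinase gene Prtn3 (4950 against 7086 CPM) and the cathepsin G gene Ctsg (7392 against 15160 CPM) were lower in the monocyte-leaning sum of each set. Monocyte-leaning cells thus carried primary granule RNA at levels of the same order as their granulocyte-leaning neighbours.

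Markers of some other lineages were near 0 and those of others were not. The 9 erythroid and megakaryocyte genes summed to 2.23 to 9.38 CPM per set, with Epor, Hba-a1, Hbb-bt and Klf1 at 0 in every set. The 8 lymphoid genes summed to 3.75 to 12.7 CPM, and the 15 dendritic genes to 96.3 to 263.9 CPM, of which Flt3 gave 122.8 CPM in the second day 8 set. The median of the dendritic sum was 118.7 CPM, against 112.1 CPM in the granulocyte-leaning, 153.3 CPM in the stem-like and 124.3 CPM in the remaining class. Siglech and Cd74, which mark plasmacytoid and antigen-presenting dendritic cells, reached at most 0.181 and 0.106 CPM, and H2-Eb1 was at 0. Other genes of the dendritic list were read in every set: Bst2 at 31 to 63.7 CPM, Tcf4 at 27.5 to 50.1 CPM and H2-Ab1 at 4.45 to 26.6 CPM. Camp, a gene of late neutrophil granules, was also at 0 in every set. The 10 late neutrophil genes summed to 29.9 to 123.7 CPM and the 5 eosinophil genes to 1.99 to 25.2 CPM. The 7 basophil and mast genes, Hdc among them, summed to 24.7 to 137 CPM, with a median of 73 CPM over the sets against 268.1 CPM in the granulocyte-leaning class and 1167 CPM in the erythroid, mast and basophil class. The 16 stem and multipotent genes summed to 596.9 to 917.8 CPM, with a median of 797.9 CPM against 621.4 CPM in the granulocyte-leaning and 1617 CPM in the stem-like class. The 6 stroma and endothelium genes summed to 54.7 to 98.5 CPM, and their median of 69.1 CPM was the highest of the 4 classes (39 to 41.4 CPM in the others). Nearly all of it came from Pecam1, the CD31 gene, which leukocytes express too (52.7 to 97.2 CPM), while Cdh5, Col1a1 and Cxcl12, which mark endothelium and stroma, stayed under 1 CPM.

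**Figure D2:**
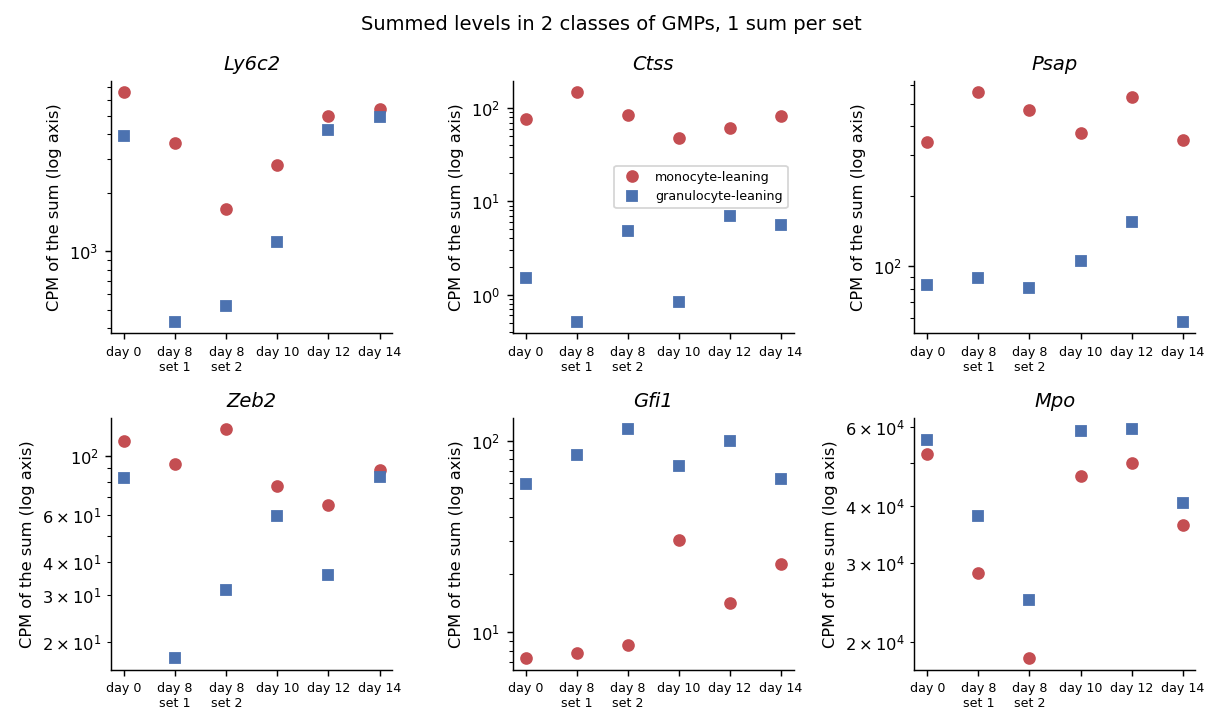
Level of 6 genes in the summed reads of the monocyte-leaning cells (circles) and granulocyte-leaning cells (squares) of each set, in CPM on a log axis. Ctss, Psap, Ly6c2 and Zeb2 are higher in the monocyte-leaning sum of all 6 sets, Gfi1 and Mpo lower, and the Ly6c2 levels of the classes lie farthest apart on day 8.

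The question of the time course was what the members of the class did between days. In sums of reads per set, 12944 genes were tested with edgeR's quasi-likelihood test and Benjamini-Hochberg adjustment, and nearly nothing passed an adjusted p of 0.05. On day 8 against day 0 only Eif2s3y rose (log2 fold change 7.52, adjusted p = 0.0252, edgeR) and only Xist fell (−8.76, adjusted p = 0.0114, edgeR), 0.0155% of the genes tested. On day 10 against day 0 Eif2s3y and Xist again passed (edgeR adjusted p = 0.0402 for the weaker, again 0.0155%). None passed on day 12 against day 0 (0%), with 45 genes at an unadjusted p under 0.05 and 0 calls by DESeq2 and limma voom. None passed on day 14 against day 0 (0%), with 191 genes at an unadjusted p under 0.05, 3 calls by DESeq2 and 0 by limma voom. None passed on day 10 against day 8 (0%), with 289 genes at an unadjusted p under 0.05, 2 calls by DESeq2 and 1 by limma voom. The test rests on 1 residual degree of freedom, from the 2 day 8 sets, and summed reads cannot tell fewer cells with a transcript from less transcript per cell. With thinned cells or without the gene filter, edgeR's prior degrees of freedom were infinite. The calls quoted below from those 2 alternatives thus used a spread common to genes and not the gene's own spread between the day 8 sets. The values below are therefore given by set, and 'higher' or 'lower' describes these sums without a call.

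For scale, both day 8 sums lay above day 0 for 32.1% of the tested genes and below it for 31.5%. On day 10, 21.8% of genes were at least 1.5-fold above day 0 and 28.3% as far below. The same shares were 17.9% and 19.3% on day 12 and 22.1% and 25% on day 14, and 19.2% and 23.9% for day 10 against day 8. The comparisons with day 0 share the day 0 sum.

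Within the class, monocyte genes that the rule did not use stood on both sides of day 0 on day 8, and Ly6c2 was among the lower ones. Of 18 tested monocyte genes 4 were above day 0 in both day 8 sums and 7 below (32.1% and 31.5% of all genes), and the median log2 fold change was 0.01 against 0.02 over all genes tested (−0.60 to 0.06 over the alternatives run). Over the sums of all 500 kept cells, which hold the members too, the median of the same genes was −1.21. These medians are not read against each other as a result, since the rule chose members by monocyte genes in every set. The class also held its smallest share of cells on day 8. Ctss stood at 76.5 CPM at day 0, at 147 and 85.3 CPM at day 8, and at 47.7, 60.7 and 83.1 CPM at days 10, 12 and 14. Its day 8 sums were thus at or above every other day (0.55, SE 0.50, against day 0). After thinning, Ctss was read in 31 of 48 members on day 0 and in 14 of 15 and 8 of 8 on day 8, and in 13 of 23, 28 of 46 and 12 of 20 later. In the granulocyte-leaning cells it was read in 2 of 29 on day 0 and in 0 of 14 and 1 of 8 on day 8. Psap stood at 340.9 CPM at day 0, at 558.9 and 471.9 CPM at day 8 and at 373.9, 532.3 and 347.8 CPM later (0.54, SE 0.35, on day 8). Ccr2 stood at 156.2 CPM at day 0, at 331.2 and 267.7 CPM at day 8, at 234.0 CPM at day 10 and at 143.4 and 92.2 CPM at days 12 and 14 (0.88, SE 0.39, on day 8). Both genes were higher in each day 8 sum than on day 0.

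Ly6c2 stood at 6569 CPM at day 0, at 3611 and 1659 CPM in the day 8 sums, at 2786 CPM at day 10 and at 4958 and 5369 CPM at days 12 and 14. The day 8 and day 10 sums were the lowest, and the levels of days 12 and 14 lay between them and day 0. The log2 fold change against day 0 was −1.38 (SE 0.42) on day 8, −1.23 (SE 0.51) on day 10, −0.37 on day 12 and −0.14 on day 14, none called by edgeR over all genes. Without the first day 8 set the day 8 value was −2.01 and without the second −0.94, and it was −0.72 among members whose monocyte score led by at least 0.5. When every cell was thinned to 50000 reads, the value of Ly6c2 was −1.22 and passed (edgeR adjusted p = 0.0113, against up to 1.0 in the other alternatives). All members had a Ly6c2 read on day 0. Per cell, the median was 5855 CPM at day 0, 3865 and 870.1 CPM in the day 8 sets and 3267 CPM at day 10, and the ranges of single cells overlapped on all days. Reads of Ly6c2 are uncertain where they match its near-identical neighbour Ly6c1. Lyz2 (951.5 CPM at day 0, 669.2 and 314.2 on day 8, 523.6, 659.8 and 894.0 later) and Tyrobp (836.7, then 602.4 and 525.6, then 539.4, 764.5 and 941.3 CPM) were lower in each day 8 sum than on day 0 (−1.01 and −0.62, neither called).

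**Figure D3:**
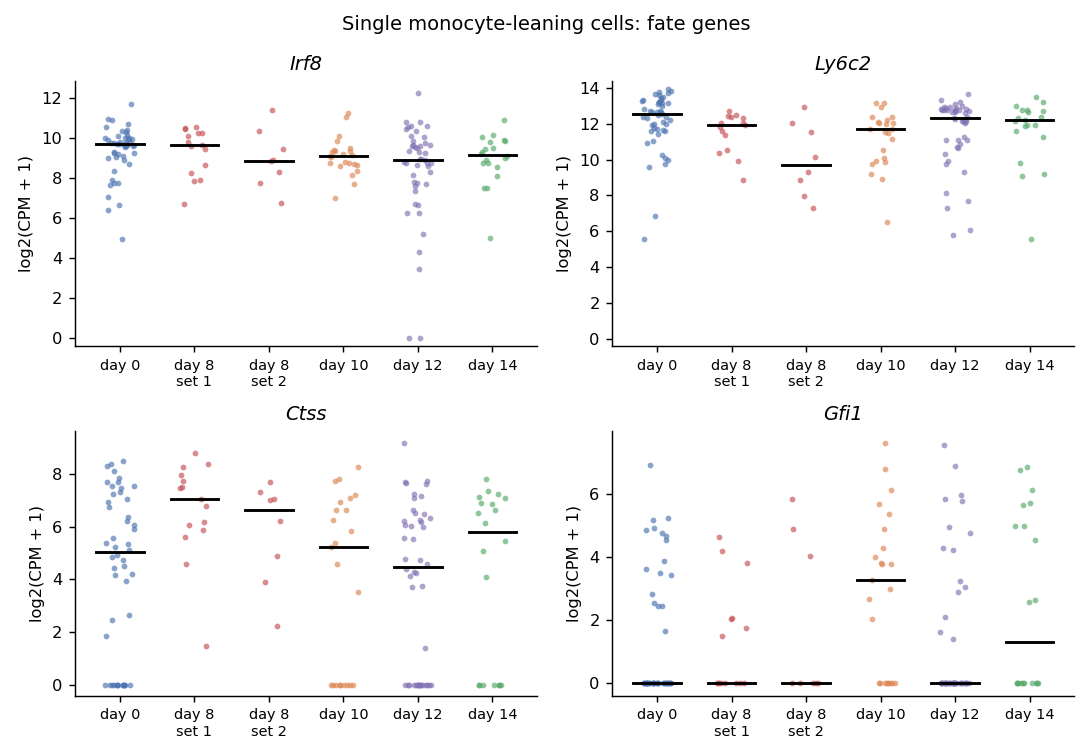
Levels of Irf8, Ly6c2, Ctss and Gfi1 in single monocyte-leaning cells by set, as log2(CPM + 1); each point is 1 cell and the line is the median. Ly6c2 is lowest in the second day 8 set, Ctss has no cell at 0 on day 8, and Gfi1 has a median above 0 on days 10 and 14 only.

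Among the fate factors, Spi1 stood near its day 0 level in every set. Spi1 stood at 301.4 CPM at day 0, at 362.3 and 293.7 CPM at day 8 and at 300.3, 314.0 and 252.4 CPM later, so that the day 8 sums lay on both sides of day 0. Cebpa ranged from 45.7 to 85.1 CPM over the sums, with 73 and 81.4 CPM at day 8 against 68.3 CPM at day 0. Cebpb, which serves emergency granulopoiesis and monocyte survival, stood at 20.7 CPM at day 0 and at 2.90 and 23.5 CPM at day 8, so the day 8 sets did not resemble each other. Zeb2 ranged from 65.7 CPM at day 12 to 126.6 CPM in the second day 8 set, and Myb from 134.9 to 212.3 CPM. Gfi1 stood at 7.29 CPM at day 0, at 7.79 and 8.53 CPM at day 8, at 30.3 CPM at day 10, and at 14.2 and 22.7 CPM at days 12 and 14. The day 10 level was the highest of the 6 sums (2.06, SE 1.14, against day 0, not called), and it was still below all granulocyte-leaning sums, which ran from 59.3 to 115.2 CPM. It lay above the upper quartile of the day 10 cells, 23.6 CPM, and 8 of the 23 cells had no Gfi1 read. Of 14 tested fate factors, 3 were above day 0 in both day 8 sums and 5 below, with a median of −0.34.

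Mpo was lower on day 8 than on any other day, and the primary granule genes were higher on day 10 than on day 8. Mpo (ENSMUSG00000009350, mm10 chromosome 11, 87793581 to 87804413) stood at 52170 CPM at day 0, at 28480 and 18440 CPM at day 8, at 46660 CPM at day 10 and at 49750 and 36340 CPM at days 12 and 14. Both day 8 sums were the lowest of all (−1.21, SE 0.33), and day 10 was higher than day 8 (1.05, SE 0.33). Neither value was called, while among thinned cells both were (edgeR adjusted p = 1.68e-05 and 0.00111, against up to 1.0 in the other alternatives). Prtn3 stood at 5056 CPM at day 0, 4843 and 3821 CPM at day 8 and 6964 CPM at day 10, and Ctsg at 7834, then 7276 and 5403, then 10230 CPM. The chaperone gene Calr showed no such order, with 1829 CPM at day 0, 2335 and 1268 on day 8 and 2355 on day 10. Of 11 tested primary granule genes 4 were above day 0 in both day 8 sums and 5 below (median −0.08). On day 10 against day 8 all 11 had a positive fold change and 7 were at least 1.5-fold higher (median 0.70, range 0.63 to 0.92 over the alternatives run). Over all kept cells that median was 0.71.

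Lysosomal genes stood on both sides of day 0. Of 18 tested, 5 were above day 0 in both day 8 sums and 7 below, and the medians were −0.05, 0.25, −0.02 and 0.04 on days 8, 10, 12 and 14 (day 8 ran from −0.29 to 0.21 over the alternatives). The cathepsin Z gene Ctsz stood at 614.4 CPM at day 0, at 1237 and 781.8 CPM at day 8 and at 983.6, 685.8 and 652.3 CPM later. Lamp1 ranged from 498.5 to 799.9 CPM and Ctsb from 281.8 to 472.7 CPM. Hexa was lower in both day 8 sums, at 360.7 and 372.6 CPM, than on day 0 at 528.2 CPM and than on any later day (474.0 CPM or more).

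Several receptor and sort marker genes were lower on day 8 than on day 0. Of 16 tested cytokine receptor genes 1 was above day 0 in both day 8 sums and 8 below (median −0.23). The tumour necrosis factor receptor gene Tnfrsf1a stood at 127.8 CPM at day 0, at 77 and 57.1 CPM at day 8 and at 89.4, 122.0 and 111.3 CPM later, and its day 8 sums were the lowest of the 6. Ifngr1 stood at 646.2 CPM at day 0, 541.7 and 302.2 CPM at day 8 and 735.7 CPM at day 10. The type I interferon receptor gene Ifnar2 ranged only from 129.6 to 167.3 CPM, and Csf2rb, the shared chain of the GM-CSF and interleukin 3 receptors, from 77.1 to 119.3 CPM. Of the 5 sort genes none was higher and 3 were lower in both day 8 sums. Fcgr3, part of the Fc gamma receptor gate, stood at 262.1 CPM at day 0, at 155.2 and 142.0 CPM at day 8 and at 372.4 CPM at day 10, where it was the highest of the 6 sums (1.38, SE 0.34, against day 8, not called). Kit stood at 89.3 CPM at day 0, 34.4 and 74.2 CPM at day 8 and 64.7, 89.7 and 78.7 CPM later. Of 12 tested stem and multipotent genes 1 was above day 0 in both day 8 sums and 7 below (median −0.50, against 0.31 over all kept cells). Cells whose stem-like score was highest were left out of the class by the rule. These were 46 and 48 cells in the day 8 sets and 7 on day 0, so this contrast is not read as a result. Cd34 stood between 336.6 and 596.1 CPM in all sums and Fcgr2b between 97.8 and 128.6 CPM. Flt3, a receptor of multipotent and dendritic progenitors, stood at 8.82 to 22.3 CPM in 5 sums and at 122.8 CPM in the second day 8 set, where 1 cell gave 71.9% of its reads (46.9 CPM without it). Of the trafficking genes, the adhesion ligand gene Selplg ranged from 167.1 to 402.7 CPM and the hyaluronan receptor gene Cd44 from 135.2 to 175.1 CPM.

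Most genes of growth and glucose use stood higher in the sums of days 8 and 10 than in that of day 0. Of 14 glycolysis genes 12 were above day 0 in both day 8 sums and 1 below (median 0.49, range 0.36 to 0.70 over the alternatives run), against 32.1% and 31.5% of all genes. On day 10, 8 were at least 1.5-fold above day 0 and 0 as far below (median 0.61), and the medians of days 12 and 14 were 0.21 and 0.25. Ldha, which encodes lactate dehydrogenase A (ENSMUSG00000063229, chromosome 7, 46841475 to 46855627), stood at 1069 CPM at day 0, at 2757 and 2744 CPM at day 8, at 2586 CPM at day 10 and at 1357 and 1168 CPM at days 12 and 14. The log2 fold change was 1.31 (SE 0.35) on day 8 and 1.28 (SE 0.38) on day 10, uncalled over all genes (edgeR adjusted p = 0.999 on day 8). In single cells the median was 951.6 CPM at day 0, 2721 and 2780 CPM in the day 8 sets and 1656 CPM at day 10. The day 10 sum thus lay above the upper quartile of its cells, 2298 CPM. The lower quartile of the first day 8 set, 2287 CPM, was above the highest day 0 member, 1811 CPM. That of the second day 8 set, 1420 CPM, was not. Aldoa, the aldolase gene, stood at 928.0 CPM at day 0 and at 1596 and 1031 CPM at day 8, Pkm, the pyruvate kinase gene, at 692.1 and then 1212 and 799.3 CPM, and Gpi1, the glucose phosphate isomerase gene, at 451.9 and then 653.1 and 495.8 CPM. The glucose transporter gene Slc2a1, singled out after its values were seen, stood at 3.38 CPM at day 0, 46.0 and 32.4 CPM at day 8, 39.4 CPM at day 10 and 19.9 and 9.94 CPM later (3.47, SE 0.97, on day 8).

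Ribosome biogenesis showed an even pattern on day 8. Of 18 genes 17 were above day 0 in both day 8 sums and 0 below (median 0.58, range 0.48 to 0.62 over the alternatives run). On day 10, 13 were at least 1.5-fold higher and 0 as far lower (median 0.82, range 0.28 to 0.85 over the alternatives run). The medians were 0.30 on day 12 (range 0.04 to 0.56) and −0.03 on day 14. Ncl, which encodes nucleolin, stood at 889.1 CPM at day 0, at 1690 and 1463 CPM at day 8 and at 1399, 858.7 and 670.2 CPM later. Its day 10 sum lay above the upper quartile of the day 10 cells, 1308 CPM. The nucleophosmin gene Npm1 stood at 602.4 CPM at day 0, 897.1 and 770.3 CPM at day 8 and 1097, 532.9 and 513.2 CPM later. Gnl3, the nucleostemin gene, stood at 191.4, then 230.7 and 301.4, then 367.4, 278.4 and 132.0 CPM, and Dkc1, the dyskerin gene, at 221.8, then 257.6 and 229.3, then 380.7, 213.1 and 194.8 CPM. Of 15 respiratory chain genes 10 were above day 0 in both day 8 sums and 1 below (median 0.33), with the ATP synthase subunit gene Atp5b at 2193 CPM at day 0 and 4215 and 3040 CPM at day 8. The medians over all kept cells on day 8 were 0.59 for glycolysis and 0.72 for ribosome biogenesis, so the members did not stand alone in these lists. Reads per spike-in read, given above, moved in the same sets, and their part in these values was not tested.

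DNA replication and mitosis genes differed in pattern. Of 20 replication genes 16 were above day 0 in both day 8 sums and 0 below (median 0.41, range 0.06 to 0.58 over the alternatives run). The medians on days 10, 12 and 14 were 0.41 (range 0.1 to 0.48), 0.31 (range 0.05 to 0.5) and −0.23. Rrm2, a subunit of ribonucleotide reductase, stood at 247.9 CPM at day 0, 677.5 and 529.0 CPM at day 8 and 384.7, 312.8 and 201.5 CPM later (1.23, SE 0.37, on day 8). The helicase subunit gene Mcm6 stood at 534.2 CPM at day 0, 872.0 and 1247 CPM at day 8 and 948.3, 761.8 and 533.5 CPM later. Mcm5 and Mcm3 showed the same order between day 0 (381.4 and 287.5 CPM) and day 8 (554.8 and 780.9, and 495.6 and 445.0 CPM). Of 20 mitosis genes 3 were above and 3 below day 0 in both day 8 sums (median −0.15, range −0.46 to 0.86 over the alternatives run). Mki67, the gene of the proliferation antigen Ki-67, stood at 186.3 CPM at day 0, 157.7 and 69.1 CPM at day 8 and 108.9, 126.2 and 106.9 CPM later. The topoisomerase gene Top2a stood at 360.8 CPM at day 0 and between 225.5 and 347.3 CPM in the other sums. Of 6 tested cell cycle inhibitor genes 1 was above and 3 below day 0 in both day 8 sums (median −0.67, range −0.96 to −0.02 over the alternatives run). All 6 were at least 1.5-fold below day 0 on day 10 (median −1.22), among them the antiproliferative gene Btg2 (53.2 CPM at day 0, 19.3 CPM at day 10) and Cdkn1a, the p21 gene (15.1 and 3.48 CPM). Of 10 tested p53 target genes 4 were above and 2 below day 0 in both day 8 sums (median 0.20, range −0.33 to 0.91 over the alternatives run), with the cyclin G1 gene Ccng1 at 52.1 CPM at day 0, 97.4 and 69.1 CPM at day 8 and 85.7, 59.4 and 34.6 CPM later.

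**Figure D4:**
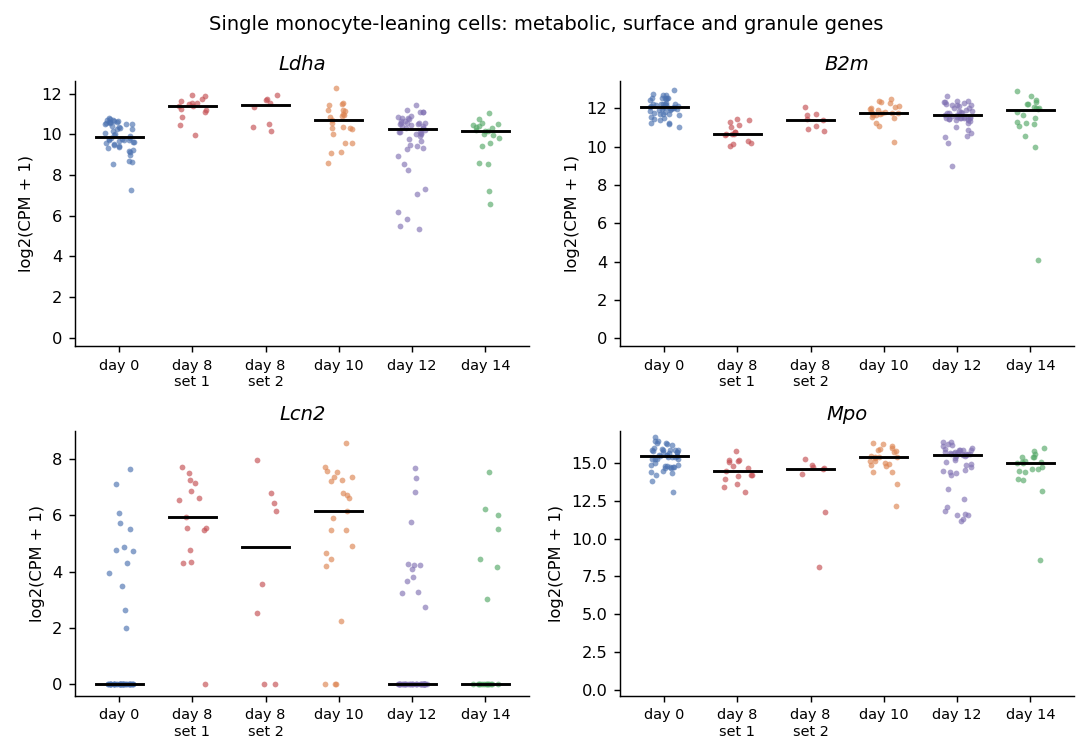
Levels of Ldha, B2m, Lcn2 and Mpo in single monocyte-leaning cells by set, as log2(CPM + 1); each point is 1 cell and the line is the median. Ldha and Lcn2 have higher medians and B2m and Mpo lower medians in both day 8 sets than on day 0.

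Antigen presentation and early response genes stood lower on day 8. B2m, the light chain of MHC class I (ENSMUSG00000060802, chromosome 2, 122147686 to 122153083), stood at 4394 CPM at day 0, at 1791 and 2524 CPM at day 8 and at 3027, 3395 and 3968 CPM at days 10, 12 and 14. The sums were lowest on day 8 and each later day was higher than the one before (−1.08, SE 0.34, on day 8, not called). H2-D1 stood at 1500 CPM at day 0, 784.7 and 957.0 CPM at day 8 and 954.0, 1313 and 1569 CPM later, and H2-K1 at 1218, then 633.3 and 875.6, then 793.4, 1103 and 1186 CPM. The H2 genes are near-identical copies, and their reads are uncertain. The immunoproteasome gene Psmb8 lay on both sides of day 0 (495.6 CPM) on day 8, at 391.8 and 503.0 CPM. Of 9 genes of this list 1 was above and 6 below day 0 in both day 8 sums (median −0.43, range −0.90 to −0.12 over the alternatives run).

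Of 12 tested immediate early genes none was above and 10 were below day 0 in both day 8 sums (median −0.92, range −1.54 to −0.57 over the alternatives run). On day 10, 9 were at least 1.5-fold lower and 0 as far higher (median −1.07), and the median on day 12 was −0.07. Jun stood at 98.5 CPM at day 0, 53.2 and 29.4 CPM at day 8, 42.8 CPM at day 10 and 107.4 and 72.8 CPM later. Fos stood at 205.2 CPM at day 0, 159.9 and 151.8 CPM at day 8 and 126.3, 211.0 and 190.4 CPM later, and Ier2 at 145.9, then 113.9 and 95.1, then 46.4, 136.1 and 86.7 CPM. These genes answer to handling of cells as well as to growth factors. The nuclear RNAs Malat1 and Neat1, read here as a sign of RNA quality, were also lower on days 8 and 10. Their median was still −0.65 on day 12 and −0.57 on day 14, against −0.07 and −0.19 for the immediate early genes. Malat1 stood at 416.9 CPM at day 0, 186.3 and 189.3 CPM at day 8 and 175.6, 292.4 and 314.0 CPM later, and Neat1 at 106.3, then 75.9 and 29.8, then 39.2, 58.2 and 52.1 CPM. The part of RNA quality or handling in the list values was not tested.

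More interferon-response genes were below day 0 than above it on day 8. Of 14 tested, 1 was above and 8 were below day 0 in both day 8 sums (median −1.05, range −1.43 to −0.35 over the alternatives run). On day 10 against day 8, 8 were at least 1.5-fold higher and 1 as far lower (median 0.90, range 0.09 to 2.10), and against day 0 there were 4 each way (median −0.01, range −0.44 to 1.11). The low end of both ranges came from leaving out 1 of the 23 day 10 cells, an alternative added after seeing the data: without it 5 were at least 1.5-fold above day 8 and 1 below (median 0.09), and 2 above day 0 and 5 below (median −0.44). On day 14 against day 0 none was higher and 10 were at least 1.5-fold lower (median −1.05). Irgm1, an interferon-induced GTPase gene, stood at 69.2 CPM at day 0, 14.5 and 47.3 CPM at day 8, 85.5 CPM at day 10 and 51.7 and 42.1 CPM later. Ifi47, of the same family, stood at 106.5 CPM at day 0, 93.1 and 120.6 CPM at day 8 and 113.3, 84.6 and 68.8 CPM later. Bst2, the tetherin gene, ranged from 31 to 63.7 CPM and Ifi203 from 16.2 to 49.8 CPM. A group of 5 genes at low levels, Mx1, Rsad2, Usp18, Oasl1 and Rtp4, were looked at by cell after their values were seen. On day 10 this same cell gave 100% of the Mx1 reads, 79.03% of the Rsad2 reads, 85.34% of the Usp18 reads, 77.02% of the Oasl1 reads and 82.4% of the Rtp4 reads, so their day 10 sums rest on 1 cell, which held 4.84% of all reads of the sum. Of 11 tested Toll-like receptor and NF-kappaB genes 8 were above and 2 below day 0 in both day 8 sums (median 0.56), among them the adaptor gene Myd88, with 29.3 CPM at day 0, 105.0 and 59.7 CPM at day 8, 99.8 CPM at day 10 and 38.6 and 47.7 CPM later. Nfkbia, an inhibitor of the pathway, was lower in both, at 49.4 and 32.4 CPM against 61.9 CPM, and Rela ranged from 51.6 to 71.9 CPM.

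Single genes stood apart on day 8 or day 10. Lcn2, which encodes lipocalin 2, an iron-binding protein of late granules and of inflamed cells (ENSMUSG00000026822, chromosome 2, 32384633 to 32388252), stood at 10.56 CPM at day 0, at 76.8 and 47.3 CPM at day 8, at 114.0 CPM at day 10 and at 11.9 and 29.8 CPM at days 12 and 14. On day 10, 1 of 23 cells gave 44.3% of the Lcn2 reads, and the sum without that cell stood at 87.1 CPM. After thinning Lcn2 was read in 10 of 48 members on day 0, in 13 of 15 and 5 of 8 on day 8, in 18 of 23 on day 10 and in 10 of 46 and 6 of 20 later, so the days differed in how many cells had it. The log2 fold change was 2.50 (SE 0.66) on day 8 and 3.43 (SE 0.73) on day 10, the latter called among thinned cells (edgeR adjusted p = 0.0407, against up to 1.0 in other alternatives) and with DESeq2 but not in the test over all genes as run here. Of the other late neutrophil genes, the collagenase gene Mmp8 stood at 9.93 CPM at day 0, 27.3 and 9.38 CPM at day 8 and 7.23 CPM at day 10, S100a8 stood at 7.18 CPM at day 0 and at 0 and 7.25 CPM at day 8, and Camp was at 0. Of the 5 tested genes of that list, Lcn2 among them, 1 was above and 1 below day 0 in both day 8 sums (median −0.08).

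Hdc, which encodes histidine decarboxylase and is known from basophils, mast cells and myeloid progenitors, stood at 109.1 CPM at day 0, at 8.69 and 8.53 CPM at day 8, and at 54.4, 86.1 and 53.7 CPM later. Its value on day 8 was −3.71 (SE 0.53, edgeR adjusted p = 0.165), the smallest adjusted p of an uncalled gene in that comparison, and the 2 day 8 sums were the lowest of the 6. It was called with DESeq2, without the gene filter, among thinned cells, with both classes in 1 fit and without Slc34a2 and CT010467.1. Smpdl3a, a phosphodiesterase gene of phagocytes chosen after its values were seen, stood at 248.8 CPM at day 0, 46.0 and 33.7 CPM at day 8 and 142.0, 150.2 and 106.5 CPM later (−2.69, SE 0.40, edgeR adjusted p = 0.194). The other basophil and mast genes of the list summed without Hdc to 27.9 CPM at day 0 and to 42.9 and 16.2 CPM at day 8, so they lay on both sides of day 0. The basophil protease gene Mcpt8 gave most of this, with 25.3 CPM at day 0 and 41.6 and 13.6 CPM at day 8.

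Serpina3g, a serine protease inhibitor gene induced in activated cells, was also chosen after its values were seen. It stood at 50.4 CPM at day 0, at 19 and 24.3 CPM at day 8, at 363.2 CPM at day 10 and at 6.92 and 37.4 CPM at days 12 and 14. Day 10 was the highest, and 1 of its 23 cells, the one named for the interferon-response genes, gave 74.1% of the reads; without that cell the sum stood at 98.9 CPM, still above the other days. The gene was read in 22 of the 23 members of day 10, with a median of 76 CPM, and in 21 of 48 on day 0. The log2 fold change of day 10 against day 8 was 4.13 (SE 0.46, edgeR adjusted p = 0.0609), and 7 alternatives called it (adjusted p from 1.78e-12 to 1.0 over those with a test). It was 2.26 without that cell (edgeR adjusted p = 1.0). Reads shared with other copies of the Serpina3 family are uncertain.

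The lists differed in how far they stood from day 0 on day 12. The median fold changes of day 12 against day 0, which compare sets of like sex, were −0.13 for monocyte, −0.02 for lysosomal, −0.06 for primary granule and −0.07 for immediate early genes, and 0.31, 0.30 and 0.21 for replication, ribosome biogenesis and glycolysis. On day 14 they stood at −0.08, 0.04, 0.09 and −0.19, and −0.23, −0.03 and 0.25, in the same order. Other lists lay farther below day 0 on day 12: the median was −0.41 for mitosis genes, of which 3 of 20 had a positive fold change, −0.44 for interferon-response genes, −0.65 for the 2 nuclear RNAs and −1.07 for the 3 tested basophil and mast genes. It was 0.02 for antigen presentation, 0.03 for respiratory chain, 0.01 for cytokine receptor, −0.18 for fate factor, −0.19 for stem and multipotent and −0.27 for cell cycle inhibitor genes. A p that misses the threshold does not show that these days were alike, since each of them had 1 set.

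**Figure D5:**
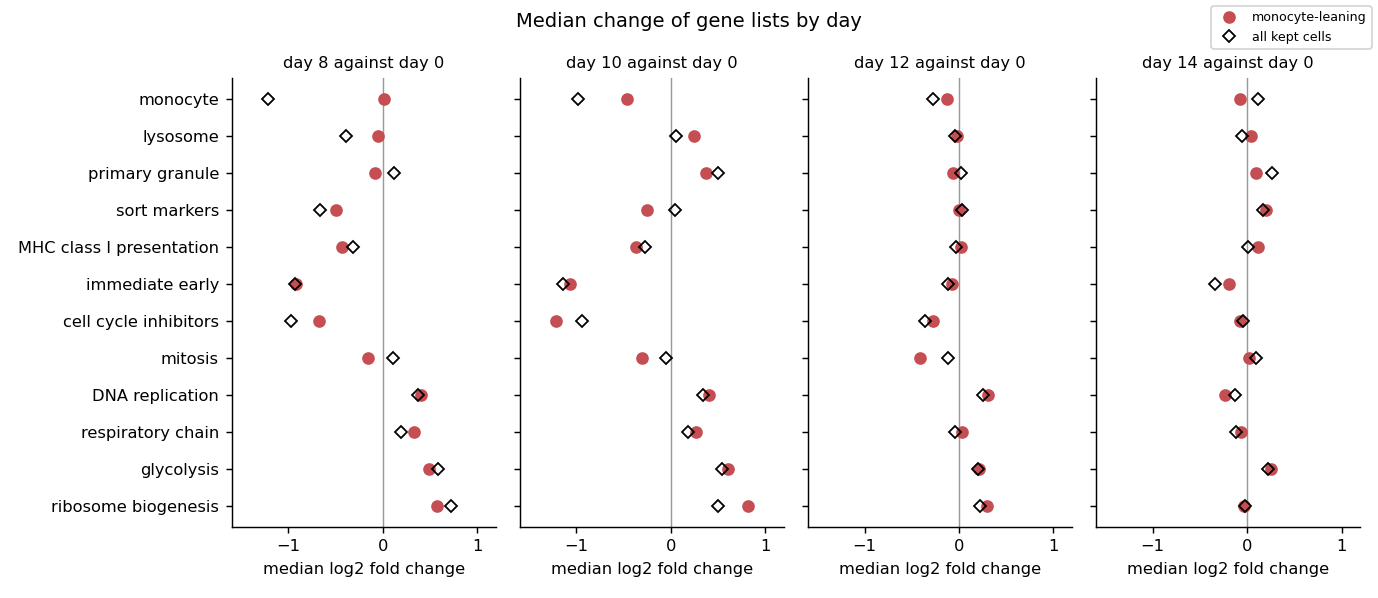
Median log2 fold change of 12 gene lists on each day against day 0 (horizontal axis), in the monocyte-leaning sums (filled circles) and in the sums of all kept cells (open diamonds), which hold the members too. On day 8 the monocyte list stands at 0.01 in the members, which were chosen by monocyte genes, and at −1.21 in all cells. Ribosome biogenesis (0.58 and 0.72) and immediate early genes (both near −0.92) lie close together on that day.

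Whether the change from day 0 to day 8 differed between monocyte-leaning and granulocyte-leaning cells was tested within sets over 13831 genes. With edgeR 2 genes passed, or 0.0145%, Prg2 (12.07) and S100a8 (−4.0), both carried by single granulocyte-leaning cells whose values are given at the end. Ly6c2 in granulocyte-leaning cells stood at 3944 CPM at day 0, at 434.2 and 523.6 CPM at day 8, at 1122 CPM at day 10 and at 4207 and 4932 CPM later, so it was lower on day 8 in both classes. The difference between the classes was 1.6 (SE 0.39, edgeR adjusted p = 0.787), not called over all genes. It was 1.87 for Ly6c2 among thinned cells, where it was called (edgeR adjusted p = 3.34e-06), as it was without the gene filter (1.78e-09), against up to 1.0 in other alternatives, and it was 0.94 without the first day 8 set and 2.25 without the second. Zeb2 differed by 1.74 (SE 0.61, not called), with 83 CPM in the granulocyte-leaning cells of day 0 and 17.3 and 31.2 CPM at day 8. Mpo differed by −0.34 (SE 0.17), which edgeR did not call and limma voom did (limma voom adjusted p = 0.00157, against 1.0 in every other alternative with a test). Ldha differed by −0.06 (SE 0.28), not called by edgeR. Ldha in granulocyte-leaning cells went from 1041 to 2989 and 2504 CPM, and B2m from 4492 to 1207 and 2024 CPM. Both classes thus had Ldha higher and B2m lower in each day 8 sum than on day 0.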

How the data were processed

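Single-cell Smart-seq2 libraries, made with Nextera XT and without molecular identifiers, were deposited by the authors as tables of read counts per gene and cell. Per the submitters' processing notes, reads were aligned to mm10 with GSNAP and counted with HTSeq (0.5.3p3); whether counting used strand is not given in the sources used here, and this kit does not mark it, so a gene and an overlapping antisense gene cannot be told apart. Of 574 labelled cells, 573 had a column, and 1 further column was not used. Rows that name no gene (a median of 90.4% of a cell's reads) and 92 spike-in rows stayed out. Cells with at least 50000 reads and 1000 genes were kept (500). GENCODE vM21 named 45143 of 46078 gene rows. The members and gene lists were chosen with earlier results of these data known.

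Cells are not replicates, so reads of the members were summed per set. Genes read in at least 20% of members of a set and passing edgeR's expression filter were tested with edgeR 4.0.16 (quasi-likelihood, TMM factors, 1 mean per day over all 6 sets, Benjamini-Hochberg, threshold 0.05) in R 4.3.3. The class difference used sums of 2 classes per set, with sets as a block. DESeq2 1.42.0, limma 3.58.1 (voom), other cell and gene filters, thinning to 50000 reads and left-out sets were alternatives. Levels are CPM of the sums. No doublet caller was run, since cells were sorted singly into wells, and 0 pairs of cells had identical counts. The naming rule took, per day comparison, the 8 largest rises and falls among called genes at 32 CPM or more with a read in at least 30% of members (5 each way for the class difference), without sex-linked genes, then up to 4 genes per list by CPM, the 16 score genes and 12 fate, granule and surface genes. No day comparison had a called gene that was not sex-linked. Other steps used Python 3.11.15, pandas 2.3.3, numpy 2.4.6, matplotlib 3.10.9 and scipy 1.17.1. A gene of the adhesion and trafficking list is not reported here.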

Additional observations from a re-analysis of the deposited data

Results flagged for a closer look

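The change from day 0 to day 8 differed between monocyte-leaning and granulocyte-leaning cells for 2 genes by the test of the difference itself. For Prg2, an eosinophil granule gene, the difference was 12.07 on the log2 scale (SE 1.10, edgeR adjusted p = 0.000185). In granulocyte-leaning cells Prg2 stood at 751.8 CPM at day 0 and at 0 and 0.322 CPM at day 8, and 1 of 29 cells gave 3501 of the 3524 day 0 reads (4.97 CPM without it). In monocyte-leaning cells it stood at 5.49 CPM at day 0 and at 0 and 12.4 CPM at day 8. The difference was 3.06 among cells with at least 200000 reads and 2000 genes, and it was not called there, by DESeq2 or by limma voom; it was 7.15 without the second day 8 set. A fitted fold against sums at 0 depends on the prior count and is no bound.

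For S100a8, a neutrophil calgranulin gene, the difference was −4.0 (SE 0.58, edgeR adjusted p = 0.0224). In granulocyte-leaning cells it stood at 227.4 CPM at day 0 and at 189.2 and 2846 CPM at day 8, where 1 of 8 cells gave 99.0% of the reads of the second set (30.1 CPM without it) and 1 of 14 gave 82.4% in the first (35.1 CPM without it). In monocyte-leaning cells it stood at 7.18 CPM at day 0 and at 0 and 7.25 CPM at day 8. It was not called with DESeq2 size factors (edgeR adjusted p = 0.257), by DESeq2 or limma voom, among deeper or thinned cells, or without day 14, and it was −8.18 without the second day 8 set.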

How the results depend on the processing

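The number of genes called was 2 on day 8 against day 0 and became 6 with the DESeq2 Wald test, 0 with limma voom, 9 without the gene filter, 0 among cells with at least 200000 reads and 2000 genes, and 15 after thinning to 50000 reads. For day 10 against day 0 it was 2 and became 4, 0, 4, 0 and 6 in the same order, and 0 without day 14. For day 12 against day 0 it was 0 and became 2 without the gene filter and 3 after thinning. For day 14 against day 0 it was 0 and became 3 with the Wald test, 9 without the filter, 18 after thinning and 2 without Slc34a2 and CT010467.1. For day 10 against day 8 it was 0 and became 1 with DESeq2 size factors, 2 with the Wald test, 1 with limma voom, 8 without the filter, 7 after thinning, 1 with both classes in 1 fit and 2 without Slc34a2 and CT010467.1. For the class difference it was 2 and became 1 with DESeq2 size factors, 1 with the Wald test, 14 without the filter, 0 among deeper cells, 6 after thinning and 1 without day 14. The cause was not tested. Leaving out Slc34a2 and CT010467.1, day 14 or 1 day 10 cell was chosen after seeing the data. Among cells with at least 200000 reads the share of monocyte-leaning cells was 65.6% on day 0 (21 of 32 cells) and 75% on day 14 (3 of 4 cells). No paired analysis was possible because the days share only the set number 1. Without either day 8 set, or with a lead of at least 0.5 in the monocyte score, no residual degree of freedom was left, so these gave values with no test; the class difference could not be fitted under that lead, and the deeper cells held no day 14 sum. Of 19 list medians of day 8 against day 0 that were recomputed, those of the monocyte, lysosomal, mitosis and p53 target genes changed sign under an alternative (−0.60 to 0.06, −0.29 to 0.21, −0.46 to 0.86 and −0.33 to 0.91), and the other 15 did not. The calls over all genes stayed at 2, 2, 0, 0 and 0 without 1 day 10 cell, while the interferon list median of day 10 against day 8 went from 0.90 to 0.09. Among the remaining results 1354 stayed on their side of the threshold or within the spread, 147 moved beyond it, 15 gained and 9 lost a call. The number of cells, 15 and 8, limits the day 8 sums; the median depth per cell was lowest on day 14, at 108258 reads, and reads without molecular identifiers count copies.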
